A study of Mus musculus with 18 samples.

Results

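EBF1 and PAX5 are transcription factors that act in sequence in early B-cell development, and the direct comparison of RNA from pro-B cells lacking one or the other is described here over all autosomal genes. The comparison set the 3 Ebf1-KO libraries against the 3 Pax5-KO libraries, 6 of the 18 samples of the study, over the 22952 autosomal genes among 24072 genes in the deposited table. The 3 WT libraries served as a reference level. All 3 groups came from fetal liver of mice of the C57BL6/J strain, either wild type, Ebf1-/- (Ebf1 knock out) or Pax5-/- (Pax5 knock out), and were expanded on OP9 stromal cells, a mouse feeder line, with interleukin-7 and the ligands of the KIT and FLT3 receptors. All cells had thus seen the same stroma and cytokines. The labels do not state fetal age, how many fetuses stand behind a library or which exons were deleted. The other 9 samples are ATAC-seq libraries, which measure how open chromatin is, from the same 3 genotypes.

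In textbook accounts, EBF1 specifies the B lineage in lymphoid progenitors together with E2A and FOXO1, and switches on the parts of the pre-B cell receptor and the Pax5 gene. PAX5 then commits the cells: it raises genes such as Blnk and holds down genes of other lineages, and progenitors without it keep the capacity to form other blood cells. EBF1 and PAX5 are also known to sustain each other's transcription.

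Values are reads over exons per 10 M mapped reads. Log2 differences are Ebf1-KO minus Pax5-KO on the scale log2(value + 1), where changes of low genes come out too small, and a gene was called at a limma adjusted p under 0.05. Mapped reads ran from 27.3 to 89.1 M per library and reads over exons from 15.6 to 63.6 M. The share of mapped reads over exons was 60.5 to 69.8% in Ebf1-KO and 55.5 to 71.4% in Pax5-KO libraries, and in each knockout it was highest in replicate 3. Correlations of log values were 0.991 to 0.995 within Ebf1-KO, 0.990 to 0.993 within Pax5-KO and 0.885 to 0.891 between them (Pearson's r across genes). Whether replicates came from separate fetuses or cultures is not stated, so p-values measure only the spread between these libraries, which may be technical. Xist, the RNA of the inactive X chromosome, was at 41026 to 47861 in Ebf1-KO and 1.59 to 42.8 in Pax5-KO libraries, and the Y-linked gene Ddx3y at 0.517 to 2.75 and 713.5 to 1081. The 3 Ebf1-KO libraries were thus female and the 3 Pax5-KO libraries male by these genes, and an effect of sex on autosomal genes cannot be told apart from genotype. RNA was bulk, so fewer cells of a type and less RNA per cell cannot be told apart either.

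The targeted genes came first. Ebf1 (chr11:44618100-45008096, plus strand, mm10) was at 1446, 1345 and 1605 in Ebf1-KO, at 1328, 1556 and 1661 in Pax5-KO and at 3252, 4200 and 4454 in WT. The knockouts overlapped, with a log2 difference of -0.05 ± 0.15 (SE, n = 3 per group, limma adjusted p = 0.87), and both lay below WT. Pax5 (chr4:44531506-44710440, minus strand) was at 8.53, 15 and 15.7 in Ebf1-KO, at 99.1, 98.6 and 129 in Pax5-KO and at 1314 to 1629 in WT. Pax5 RNA was thus lower in the cells lacking EBF1 than in those lacking PAX5 (-3.00 ± 0.21, adjusted p = 1.74e-08). The table counts whole transcripts, so reads from outside a deleted part are included, and these levels do not check the genotype labels.

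Of the 12436 autosomal genes that passed the filter on low reads, 3830 (30.8%) were called: 2194 (17.6%) were higher in Ebf1-KO and 1636 (13.2%) lower. In 5149 genes (41.4%) the 3 libraries of one knockout all lay above those of the other. The median log2 difference over all tested genes was 0.05. Many called genes differed by large steps: 1285 higher and 1089 lower genes passed a 2-fold difference, 642 and 582 a 4-fold one, and 162 and 202 a 16-fold one. The filter drops genes low in all groups, so a gene kept only through the knockout where it is high had to differ. This holds for members of the gene lists too, and counts by list are to be set beside the shares of 17.6% and 13.2%. The plot of group means shows the 2 clouds of called genes on either side of the diagonal.

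**Figure D1:**
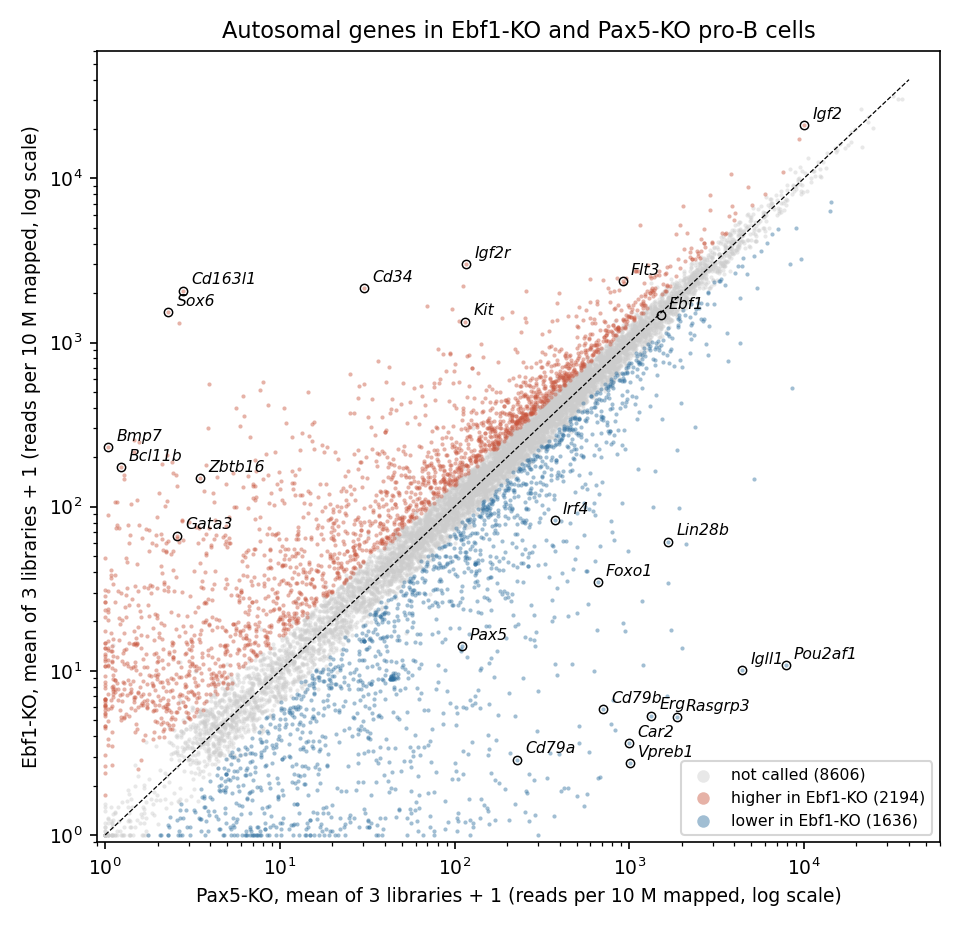
Mean of 3 Pax5-KO libraries (x axis) against the mean of 3 Ebf1-KO libraries (y axis) for 12436 autosomal genes, both in reads per 10 M mapped reads plus 1 on log scales. Grey points were not called, red points (2194) were higher and blue points (1636) lower in Ebf1-KO. The dashed line marks equal levels. Pou2af1 and Igll1 sit at the lower right and Cd163l1 and Sox6 at the upper left, while Ebf1 lies near the line.

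The chains of the pre-B cell receptor were far lower in Ebf1-KO. Of 21 autosomal genes of this receptor and of B-cell receptor signalling, all tested, 11 were lower and 4 higher in Ebf1-KO. This stands beside 13.2% lower and 17.6% higher of tested autosomal genes. The list had a median log2 difference of -0.62. Igll1, the lambda5 chain of the surrogate light chain, was at 7.70, 8.79 and 10.7 in Ebf1-KO against 3706, 3794 and 5785 in Pax5-KO, with WT at 7139, 7860 and 7681. The groups did not overlap, and the difference between the knockouts was -8.76 ± 0.17 (SE, adjusted p = 5.6e-14). Vpreb1, the partner of lambda5, was at 1.93, 0 and 3.28 in Ebf1-KO against 822, 775 and 1423 in Pax5-KO, where the highest library lay within the WT range of 1204 to 1481. Its near-identical copy Vpreb2 was at 0.275, 0.366 and 0.345 against 240, 248 and 378 (-7.74 ± 0.20, adjusted p = 5.21e-13). The counting could split reads between these copies, so their separate levels are uncertain. Vpreb3, another surrogate light chain family member, had no read in any Ebf1-KO library and was at 26.5, 26.3 and 53.9 in Pax5-KO. Against 3 reads over the Ebf1-KO group, it was at least 144-fold higher in Pax5-KO.

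The signalling chains of the receptor followed the same order at different distances from WT. Cd79a (Ig-alpha) was at 2.48, 1.10 and 2.07 in Ebf1-KO against 195, 190 and 296 in Pax5-KO, with 2176 to 2265 in WT. Cd79b (Ig-beta) was at 4.95, 4.76 and 4.83 against 673, 595 and 858, with WT at 1407 to 1629. For Cd79a and Cd79b the log2 differences were -6.31 and -6.91 (adjusted p = 5.53e-12 and 1.35e-13), and Pax5-KO lay below WT in each. Cd22, an inhibitory co-receptor, was at 3.27 ± 0.671 (SD, n = 3) in Ebf1-KO and 296 ± 24.8 in Pax5-KO (-6.13 ± 0.18 SE), and the kinase gene Blk at 0.444 ± 0.218 and 54.5 ± 3.30 (-5.27 ± 0.22 SE). The adaptor gene Blnk behaved otherwise. Blnk was at 1.38, 0.733 and 0.862 in Ebf1-KO against 0, 0.317 and 1.12 in Pax5-KO, against 1010 to 1336 in WT, and the knockouts did not differ by the test (0.48 ± 0.27, adjusted p = 0.211). Without Pax5-KO replicate 3, Blnk was called higher in Ebf1-KO (0.78, adjusted p = 0.0201), at levels near 1 in either knockout. Of the 4 higher genes, Fcrla rose from 0.606 ± 0.307 in Pax5-KO to 15.6 ± 1.48 in Ebf1-KO, Cd72 from 42.2 ± 9.19 to 147 ± 9.89, Bank1 from 25.7 ± 5.12 to 53.1 ± 4.78 and the kinase gene Syk from 858 ± 74.5 to 1169 ± 43.8, a call lost without Pax5-KO replicate 2. Against the pro-B label, Igll1, Vpreb1, Vpreb3, Cd79a, Cd79b and Blnk were thus near 0 in Ebf1-KO, and Blnk in Pax5-KO, while general signalling members of the list such as Syk were not.

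The upstream sequences of the receptor genes are shown because deposited peaks of EBF1 or PAX5 binding lie over them and their accessibility differed between the knockouts. Each promoter is given as the 250 bases before the start site on the gene's strand, from RefSeq (GRCm38.p6, the build mm10): Igll1 at chr16:16863986-16864235 on the minus strand, Cd79a at chr7:24897247-24897496 on the plus strand and Vpreb1 at chr16:16869256-16869505 on the minus strand. For Pou2af1, the bound peak upstream of the start site is given on the plus strand of the genome (chr9:51213082-51213370). Capitals mark matches, on either strand, to CNCNNGGGA, a relaxed form of the EBF motif core CCCNNGGGA.
Igll1: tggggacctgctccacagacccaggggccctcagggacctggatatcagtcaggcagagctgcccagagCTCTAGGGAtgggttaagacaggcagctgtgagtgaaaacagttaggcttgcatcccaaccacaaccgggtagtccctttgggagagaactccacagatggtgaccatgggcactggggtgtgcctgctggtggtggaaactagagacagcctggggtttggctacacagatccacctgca
Cd79a: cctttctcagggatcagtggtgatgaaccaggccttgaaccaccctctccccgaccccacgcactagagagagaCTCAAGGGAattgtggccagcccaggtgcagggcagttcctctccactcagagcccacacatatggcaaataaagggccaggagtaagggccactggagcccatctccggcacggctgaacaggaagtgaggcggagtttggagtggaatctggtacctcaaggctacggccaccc
Vpreb1: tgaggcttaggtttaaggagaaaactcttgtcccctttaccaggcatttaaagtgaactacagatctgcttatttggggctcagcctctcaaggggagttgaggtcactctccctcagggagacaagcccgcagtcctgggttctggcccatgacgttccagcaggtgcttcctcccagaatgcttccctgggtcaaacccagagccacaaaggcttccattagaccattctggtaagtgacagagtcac
Pou2af1: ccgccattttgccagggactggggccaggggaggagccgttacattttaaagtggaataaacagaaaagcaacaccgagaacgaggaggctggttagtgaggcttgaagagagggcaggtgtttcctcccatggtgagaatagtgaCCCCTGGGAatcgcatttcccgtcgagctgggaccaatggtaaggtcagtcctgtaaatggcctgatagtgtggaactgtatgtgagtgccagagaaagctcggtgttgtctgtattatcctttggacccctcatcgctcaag
The match began 181 bases before the start in Igll1 and 176 bases before it in Cd79a, at base 147 of the Pou2af1 peak, and Vpreb1 held none. The relaxed form was chosen after these promoters had been searched with the strict one, which none of the 3 promoters holds and the match in the Pou2af1 peak meets. It is common: 18.1% of all 32851 promoters of the same 250 bases hold it, and 5.6% hold the strict core. Among 9381 tested genes with a promoter, the strict core was in 8.40% of the 1191 genes lower in Ebf1-KO, 6.75% of the 1659 higher ones and 6.03% of the 6531 not called. These shares describe letters in a window and not binding.

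ATAC signal at those 4 sites, in tags per 10 M per library, was lower in every Ebf1-KO library than in any Pax5-KO library. The sites were shown because of such a difference, so it and its p-values lend no support to the RNA result. At the Igll1 promoter peak it was 3.5, 5.75 and 3.84 in Ebf1-KO against 26.8, 17.8 and 20.9 in Pax5-KO, with 53.6 to 75.8 in WT. At the Cd79a promoter peak it was 2.34, 2.72 and 3.20 against 14.1, 12.2 and 12.6, with WT at 34.2 to 52.9. These 2 peaks were bound by both factors, in peak calls the authors made from published ChIP-seq data and not from these samples. The differences were -2.09 ± 0.26 (SE, n = 3, limma adjusted p = 4.38e-10) and -1.90 ± 0.27 (adjusted p = 1.65e-08). The Vpreb1 promoter peak, bound by PAX5 only, was at 1.56, 0.610 and 1.92 in Ebf1-KO against 17.6, 8.22 and 7.38 in Pax5-KO (-2.30 ± 0.31, adjusted p = 4.15e-09). The Pou2af1 peak, bound by both, was at 0.780, 0.610 and 1.28 against 12, 14.6 and 10.4 (-2.82 ± 0.28, adjusted p = 6.38e-14). At these chosen sites RNA and accessibility had the same order, WT above Pax5-KO above Ebf1-KO in the group means. Peaks of other key genes did not all follow their RNA, as given below.

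**Figure D2:**
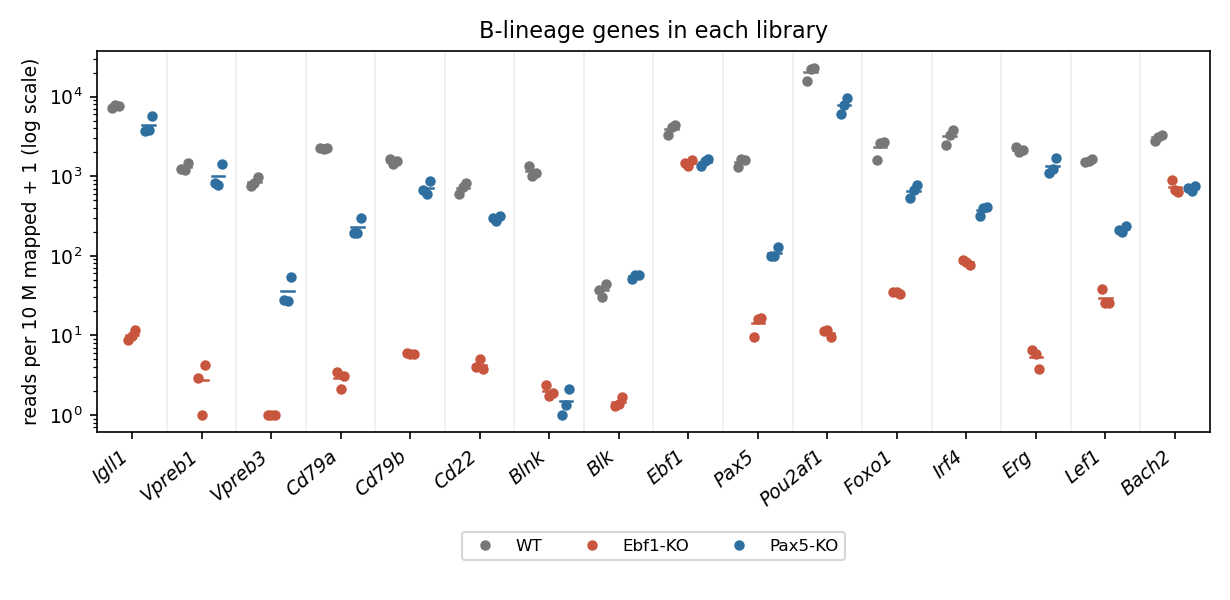
Reads per 10 M mapped reads plus 1 (y axis, log scale) of 16 B-lineage genes in each library, with WT in grey, Ebf1-KO in red and Pax5-KO in blue; points are libraries and short lines group means. Igll1, Cd79b and Pou2af1 are near the bottom in Ebf1-KO only, Blnk is low in both knockouts, and Ebf1 and Bach2 overlap between the knockouts.

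The regulators of the B lineage split as well. Of 21 tested, 11 were lower in Ebf1-KO and 2 higher, beside 13.2% and 17.6% of tested autosomal genes. The list median was -1.08. Pou2af1, the co-activator that works with octamer factors, was at 10.4, 10.6 and 8.45 in Ebf1-KO against 6119, 7836 and 9662 in Pax5-KO, with WT at 15925 to 22879. This was the largest fall by the naming rule (-9.49 ± 0.18, adjusted p = 5.6e-14). Foxo1, a partner of EBF1 in lineage specification, was at 34.1, 34.4 and 32.1 against 530, 669 and 777, and WT lay above both at 1581 to 2730 (-4.24 ± 0.20, adjusted p = 1.72e-10). The ETS factor gene Erg was at 5.50, 4.76 and 2.76 against 1086, 1233 and 1690 (-7.98 ± 0.21, adjusted p = 4.31e-13). Ikaros family gene Ikzf3 fell by 3.41, Lef1 by 2.89 and Irf4 by 2.17 on the log2 scale, and in all 3 genes WT lay above both knockouts. Irf4 was at 87.5, 82.4 and 75.2 in Ebf1-KO against 318, 396 and 406 in Pax5-KO. Ikzf1, the Ikaros gene, was higher in Ebf1-KO (8862 ± 528) than in Pax5-KO (4792 ± 692, SD, n = 3), where it overlapped WT. Irf8 was called higher too (0.92 ± 0.32, adjusted p = 0.041) at 102, 206 and 229 against 57.0, 101.4 and 121, with overlapping libraries; the call was lost without WT replicate 2, Ebf1-KO replicates 2 or 3 or Pax5-KO replicates 1 or 2, with a pseudocount of 0.1 and with no filter. The list had 5 higher genes by DESeq2 or with a replicate block. Not called were Tcf3, the E2A gene (484 ± 70.9 and 446 ± 129), and Bach2 (735 ± 151 and 705 ± 51.2).

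Genes of V(D)J recombination, which assembles antigen receptor genes, moved in both directions. Of 15 tested, 4 were higher and 5 lower in Ebf1-KO, beside 17.6% and 13.2% of tested autosomal genes. The paired recombinase genes, which lie side by side, differed in opposite ways. Rag1 was at 239, 186 and 178 in Ebf1-KO against 632, 619 and 827 in Pax5-KO (-1.78 ± 0.24, adjusted p = 1.9e-05). Rag2 was at 454, 443 and 472 against 92.6, 125 and 226 (1.72 ± 0.26, adjusted p = 6.71e-05). Neither pair of groups overlapped, and all 3 WT libraries lay above both knockouts for either gene. The polymerase gene Polm was at 39.9, 41.4 and 52.9 in Ebf1-KO but at 0.570, 0 and 0.449 in Pax5-KO, with WT at 16 to 33.9 (5.11 ± 0.29, adjusted p = 1.29e-09). Dntt, the terminal transferase that adds bases at junctions, was low in both (4.79 ± 1.2 and 0.965 ± 0.287, against 120 ± 25.9 in WT) and called higher in Ebf1-KO (1.55). Among end-joining genes, Xrcc5 and Xrcc6, the Ku subunits, fell by 1.17 and 1.15 on the log2 scale, and Xrcc4 rose by 1.33.

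Natural killer and innate lymphoid genes were higher in Ebf1-KO. Of 16 tested of 20 listed, 14 were higher and none lower, beside 17.6% and 13.2% of tested autosomal genes. The median was 3.48 (3.49 with Ncr1 at its bound). Members near 0 in Pax5-KO and WT, such as Zbtb16, Eomes and Ncr1, passed the filter only through Ebf1-KO. They had to be higher there, so the count is no test of the list. Id2, the inhibitor of E proteins needed for innate lymphoid cells, was at 205, 306 and 341 in Ebf1-KO against 19.7, 51.7 and 45.5 in Pax5-KO, with 5.28 to 7.01 in WT (2.91 ± 0.31, adjusted p = 1.56e-06). Zbtb16, the PLZF gene of innate lymphoid precursors, was at 140, 143 and 162 against 2.85, 1.27 and 3.37, and at 0 in all WT libraries. Eomes, a regulator of natural killer cells, was at 37.4, 84.3 and 77.6 against 1.42, 0.317 and 1.12. For these 3 genes the order was Ebf1-KO above Pax5-KO above WT, without overlap. The interleukin-18 receptor gene Il18r1 was at 1592 ± 107 and 95.6 ± 4.32, the interleukin-2 receptor chain gene Il2rb at 577 ± 100 and 39.3 ± 18.3, and the granzyme gene Gzma at 161 ± 33.2 and 8.95 ± 3.04. Ncr1, a natural killer receptor, was at 8.25, 11.4 and 15.2 in Ebf1-KO and without a read in Pax5-KO and WT. It was at least 60.1-fold higher in Ebf1-KO than 3 reads over the Pax5-KO group. Not called were Fcer1g, an Fc receptor chain that was high in either knockout (1455 ± 225 and 1566 ± 530, against 1.95 ± 1.74 in WT), and Rora.

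T-lineage genes moved in both directions. Of 17 tested of 21 listed, 9 were higher and 4 lower in Ebf1-KO, beside 17.6% and 13.2% of tested autosomal genes. The median was 1.25. With a minimum mean of 10 the median was 0.83. Regulators were among the higher genes: Bcl11b, the commitment factor of T cells, was at 179, 164 and 176 in Ebf1-KO against 0, 0 and 0.673 in Pax5-KO (7.20 ± 0.26, adjusted p = 1e-11). Gata3 was at 63.0, 68.5 and 65.2 against 1.14, 1.58 and 2.02, and Tcf7 at 122, 110 and 118 against 11.4, 13 and 12.8. No library of one knockout reached the range of the other. The surface gene Thy1 was at 471, 444 and 585 against 9.12, 11.1 and 20.4 (5.17 ± 0.26, adjusted p = 3.98e-10). The Notch receptor gene and 2 direct Notch targets went the other way. Notch1 was at 1129, 1031 and 973 in Ebf1-KO against 2391, 2048 and 2295 in Pax5-KO, both above WT at 335 to 427 (-1.10 ± 0.14, adjusted p = 9.86e-06). Hes1 was at 3.02, 0.366 and 0.172 against 75.2, 86.5 and 124, and Nrarp at 4.67, 3.30 and 2.24 against 55.8, 68.1 and 96.0. For both targets WT lay between the knockouts. The other lower gene was Cd5, a surface receptor gene (9.40 and 21.2 on average, -1.06, adjusted p = 0.0156), a call lost without Ebf1-KO replicates 1 or 2 or Pax5-KO replicate 3. Cd28, a co-stimulatory receptor, was high in both knockouts (1102 ± 257 and 1546 ± 252) and not called.

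Progenitor genes were also divided. Of 17 tested of 21 listed, 10 were higher and 6 lower in Ebf1-KO, beside 17.6% and 13.2% of tested autosomal genes. The list median was 1.36. Cd34, a surface marker of progenitors, was at 2065, 2144 and 2260 in Ebf1-KO against 30.5, 22.5 and 34.7 in Pax5-KO, with levels below 1 in every WT library (6.18 ± 0.19, adjusted p = 2.06e-12). The receptor gene Kit was at 1651, 1167 and 1209 against 151, 93.2 and 99.2, and WT lay between them at 245 to 327 (3.56 ± 0.20, adjusted p = 1.06e-09). Flt3, the other cytokine receptor gene stimulated in the culture, was at 2283, 2224 and 2576 against 933, 865 and 953, with WT at 6.98 to 9.25. The Hoxa cluster rose together: Hoxa5, Hoxa7, Hoxa9 and Hoxa10 were all called, with Hoxa9 at 566 ± 60.3 and 97.5 ± 11.1 and Hoxa10 at 435 ± 43.8 and 54.4 ± 5.68. Neighbouring Hoxa genes overlap in transcripts, and reads may be shared between them. Mycn was at 1526 ± 263 in Ebf1-KO and 214 ± 59.7 in Pax5-KO, where it overlapped WT. Among the lower genes, Cd93, an early B-progenitor marker, was at 3010 ± 717 against 8386 ± 921, and Hhex at 330 ± 56.1 against 830 ± 51.2.

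**Figure D3:**
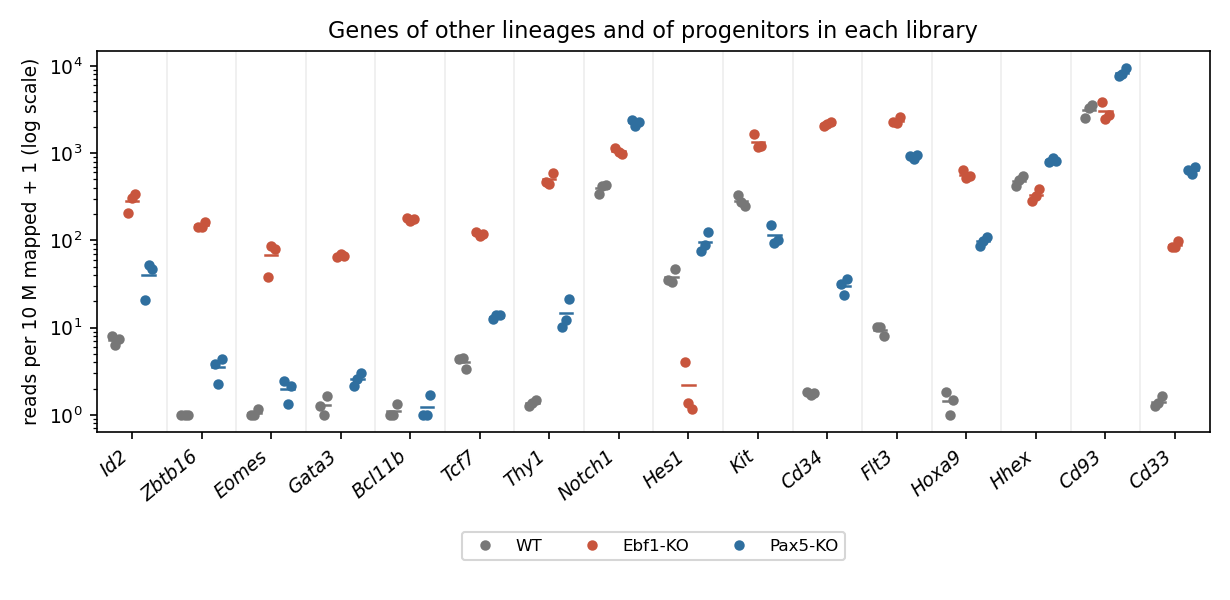
Reads per 10 M mapped reads plus 1 (y axis, log scale) of 16 genes of innate lymphoid, T, progenitor and myeloid programs in each library; WT is grey, Ebf1-KO red and Pax5-KO blue, points are libraries and short lines group means. Zbtb16, Gata3, Bcl11b and Cd34 are high in Ebf1-KO, while Notch1, Hes1, Hhex, Cd93 and Cd33 are higher in Pax5-KO.

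Myeloid and dendritic genes did not take one side. Of 16 tested myeloid genes of 22 listed, 7 were higher and 5 lower in Ebf1-KO, with a median of 0.22, which was -0.02 without Pax5-KO replicate 1, 0.53 without Pax5-KO replicate 3 and 2.06 over 11 genes with a minimum mean of 10. Cebpa, a regulator of granulocyte and monocyte fate, was at 25.9, 35.5 and 34.1 in Ebf1-KO against 0.285, 0.951 and 1.35 in Pax5-KO (4.17 ± 0.28, adjusted p = 8.34e-09). Mpo, myeloperoxidase, was at 174 ± 44 and 40.8 ± 9.44, and the Fc receptor gene Fcgr3 at 372 ± 14 and 24.4 ± 2.43. The surface lectin gene Cd33 was at 83.0, 83.9 and 96.2 in Ebf1-KO against 643, 579 and 688 in Pax5-KO (-2.85 ± 0.18, adjusted p = 5.51e-09). The cytokine receptor genes Csf2rb and Csf2ra also fell, by 1.57 and 1.62 on the log2 scale. The calprotectin genes S100a8 and S100a9 and the granule gene Ctsg had no read in any library of the 3 groups. Of 6 tested dendritic cell genes of 10 listed, 4 were higher and 1 lower, with a median of 0.70. Ccr9, a chemokine receptor of lymphoid progenitors and plasmacytoid dendritic cells, was at 11636, 9772 and 10373 against 3611, 3709 and 4198 (1.46 ± 0.15, adjusted p = 8.74e-07), and Siglech at 30.3 ± 5.57 against 83.1 ± 7.46. Of 4 tested erythroid and megakaryocyte genes, 3 were higher, at levels of at most 31.4. Beside the counts of these lists, 17.6% of all tested autosomal genes were higher and 13.2% lower in Ebf1-KO.

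Receptors, survival and growth genes were compared next. Il7r, the receptor for the interleukin-7 in the culture, was at 2080, 2193 and 1963 in Ebf1-KO, which overlapped WT at 1691 to 2020, and at 877, 769 and 962 in Pax5-KO (1.26 ± 0.13, adjusted p = 1.6e-06). Of 13 tested genes of interleukin-7 and STAT5 signalling, 3 were higher and 2 lower (median -0.11), beside 17.6% and 13.2% of tested autosomal genes. Of these 13, 5 were lower with TMM scaling or a replicate block, 0 without Ebf1-KO replicate 2 or Pax5-KO replicate 3, and 1 without Ebf1-KO replicates 1 or 3 or Pax5-KO replicate 2. The BCL2 family, which sets the threshold for apoptosis, had 6 of 11 tested genes higher in Ebf1-KO and 0 lower, with a median of 1.06, and 1 lower with TMM scaling, a replicate block or without Pax5-KO replicate 1. Without Ebf1-KO replicate 1 the median was 0.47. Members on both sides of cell death were among them. Bcl2, which protects cells, was at 5329, 6637 and 8307 against 1806, 1921 and 2346, with WT at 272 to 396 (1.72 ± 0.18, adjusted p = 1.99e-06), and Bcl2l1 at 78.2 ± 3.16 against 19 ± 6.92. The BH3-only death genes Pmaip1 (861 ± 69.1 and 93.2 ± 12.8), Bmf (401 ± 128 and 101.2 ± 11.6) and Bbc3 (23.8 ± 6.80 and 5.67 ± 1.80) were higher as well. Bcl2l11, the Bim gene, was at 5190, 1502 and 1526 in Ebf1-KO against 1224, 1038 and 1021 in Pax5-KO. Its difference of 1.06 (adjusted p = 0.0236) fell to 0.47 without Ebf1-KO replicate 1 (adjusted p = 0.0257). The gene was not called with TMM scaling (adjusted p = 0.0521), quantile normalization (adjusted p = 0.0504) or no filter (adjusted p = 0.0552). The call was also lost by DESeq2 (adjusted p = 0.0546) and without Pax5-KO replicate 2 (adjusted p = 0.0747). It was named after its values were seen.

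Replicate 1 of Ebf1-KO was also the highest of its group for Cdkn1a, the cell cycle inhibitor p21, at 3774, 1815 and 1833, against 703, 795 and 1039 in Pax5-KO. The difference was 1.48 ± 0.23 with it and 1.13 without it, called both ways. Of 22 tested cell cycle genes, 4 were higher and 1 lower in Ebf1-KO (median 0.06), beside 17.6% and 13.2% of tested autosomal genes. The cell cycle counts were 7 and 2 with TMM scaling. With a replicate block 8 were higher and 2 lower. Only 2 were higher without Ebf1-KO replicates 2 or 3 or Pax5-KO replicate 2. Mki67, the proliferation marker, was at 14315 ± 2304 and 13552 ± 1573 and was not called. Of 17 genes of the Myc and ribosome biogenesis list, 3 were lower and none higher (median -0.31). This count rose to 14 with TMM scaling and to 10 with a replicate block, and was 0 without Ebf1-KO replicate 1 and 1 without Pax5-KO replicate 3. Myc itself was at 1223, 1979 and 2424 in Ebf1-KO against 2908, 4020 and 5935 in Pax5-KO (-1.19 ± 0.35, adjusted p = 0.0178). The Myc call was lost without Ebf1-KO replicate 1 (adjusted p = 0.109) and without Pax5-KO replicate 3 (adjusted p = 0.0676).

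PI3K pathway genes (4 higher, 4 lower of 16 tested, and 7 lower with TMM scaling) and glycolysis genes (3 and 3 of 18, and 5 higher with TMM scaling, a replicate block or without Pax5-KO replicate 3) showed no common direction, with medians of -0.09 and 0.10. Among all tested autosomal genes the shares were 17.6% higher and 13.2% lower. The glucose transporter gene Slc2a3 was lower in Ebf1-KO (79.6 ± 15.6 and 304 ± 37) and the phosphofructokinase gene Pfkp higher (304 ± 22.5 and 77.7 ± 13.3). Adhesion and homing genes had 10 of 17 higher and 1 lower, with a median of 1.13. The chemokine receptor gene Ccr2 was at 578, 667 and 674 in Ebf1-KO against 20.2, 23.5 and 29.3 in Pax5-KO, the gut-homing integrin gene Itgb7 at 279 ± 16.5 and 12.5 ± 3.57, and Cd44 at 2061 ± 258 and 256 ± 60.7. Cxcr4, the receptor that holds progenitors in marrow, was the 1 lower gene (171 ± 27.3 and 247 ± 2.03), and its call was lost without Ebf1-KO replicate 2. Immediate early genes, which respond to handling, had 1 of 12 higher (Btg2) and 1 lower (Jun, with overlapping libraries), with a median of 0.37 that was -0.13 without Ebf1-KO replicate 1. The Jun call was lost with DESeq2 (adjusted p = 0.0749). With a replicate block 4 were higher and 2 lower, and 2 were higher without Ebf1-KO replicates 1 or 3 or Pax5-KO replicates 1 or 3.

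Antigen presentation genes moved in both directions. Of 12 tested, 5 were higher and 4 lower in Ebf1-KO, beside 17.6% and 13.2% of tested autosomal genes. The list median was 0.36, and -0.30 over 9 genes with a minimum mean of 10. The 4 lower genes were B2m, H2-K1 and H2-D1, which encode class I molecules, and Nlrc5, their activator. Nlrc5 was at 83.6, 101.5 and 93.6 in Ebf1-KO, overlapping WT, and at 595, 595 and 668 in Pax5-KO (-2.73 ± 0.15, adjusted p = 1.28e-09). H2-K1 was at 785, 853 and 866 against 2828, 2690 and 2956, and B2m at 6356 ± 702 against 14142 ± 1375. H2-K1 and H2-D1 are related in sequence and reads may be shared between them, so their separate levels are uncertain. Class II genes H2-Aa (12.1 ± 1.29 and 0.0747 ± 0.129) and H2-DMa (62.7 ± 11.9 and 8.89 ± 1.18) were higher in Ebf1-KO, at lower levels. Interferon response genes had 5 of 8 tested higher and 1, Ifit2, lower (4.55 ± 0.647 and 32.5 ± 3.01), with a median of 0.99. Rsad2 rested most on Ebf1-KO replicate 1, at 21.2, 5.86 and 3.79, and stayed called without it.

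Fetal and imprinted growth genes moved both ways. Of 15 tested, 3 were higher and 7 lower in Ebf1-KO, beside 17.6% and 13.2% of tested autosomal genes. The list median was -0.41. The median was -1.60 over 14 genes with only the 6 knockout libraries, -0.11 over 11 with a minimum mean of 10, -0.27 with a pseudocount of 5 and -0.23 without Ebf1-KO replicate 3. Igf2, the fetal growth factor, was at 20010, 20757 and 22913 in Ebf1-KO against 7969, 10230 and 12044 in Pax5-KO, with 10.4 to 17 in WT (1.09 ± 0.18, adjusted p = 0.000163). Igf2r, the receptor that clears it, was at 3047, 2920 and 3022 against 115, 111 and 118, and WT lay between at 394 to 528 (4.69 ± 0.14, adjusted p = 1.43e-12). Lin28b, an RNA-binding protein gene of fetal lymphopoiesis, was at 66.5, 53.1 and 61.4 against 1447, 1784 and 1758 (-4.76 ± 0.15, adjusted p = 2.14e-12). The imprinted genes Dlk1 (1.34 ± 0.848 and 111 ± 15.9), Peg3 (0.0917 ± 0.159 and 37.9 ± 2.80) and Grb10 (69.1 ± 4.65 and 793 ± 27.1) were lower in Ebf1-KO. Peg3 was highest in WT, at 174 to 330.

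**Figure D4:**
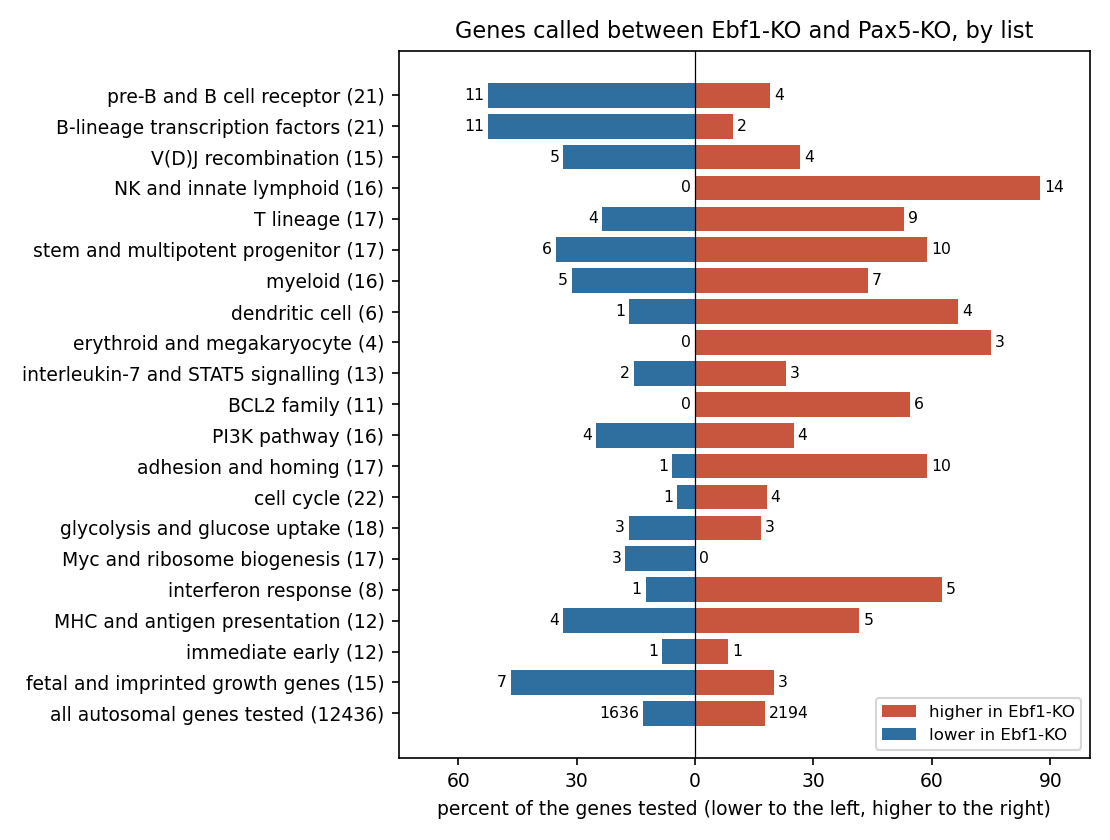
Share of tested genes called lower (blue, to the left) and higher (red, to the right) in Ebf1-KO than in Pax5-KO for 20 gene lists and for all autosomal genes; numbers at the bars are gene counts and those in brackets genes tested. The natural killer list (14 of 16 higher) reaches farthest to the right and the pre-B and regulator lists (11 lower each) farthest to the left, beside 2194 higher and 1636 lower of 12436 overall.

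The largest changes outside the lists were named by size. Among called genes at 50 or more in the higher knockout and without overlap, the largest rise was Cd163l1, a scavenger receptor gene, at 2331, 2104 and 1787 in Ebf1-KO against 2.28, 0.951 and 2.13 in Pax5-KO (9.57 ± 0.28, adjusted p = 1.43e-12). The transcription factor gene Sox6 was at 1329, 1639 and 1650 against 1.14, 0.634 and 2.13, and the slow-muscle troponin gene Tnni1 at 1120, 1277 and 1546 against 2.28, 0.634 and 2.02. Bmp7, a secreted growth factor gene, was at 230 ± 35.2 and 0.0373 ± 0.0647. Of the 12 largest rises, Pax5-KO overlapped WT in 11, and the other was Adgre1. Among the 12 largest falls after Pou2af1, Igll1 and Vpreb1 came Rasgrp3, a Ras activator gene, at 6.88, 2.93 and 2.93 in Ebf1-KO against 2038, 1711 and 1914 in Pax5-KO (-8.57 ± 0.24, adjusted p = 8.41e-13), with WT between at 65.1 to 81.7. The carbonic anhydrase gene Car2 was at 2.48, 4.76 and 0.690 against 859, 1109 and 1032, with WT at 475 to 512. The tight-junction gene Tjp1 (0.719 ± 0.368 and 501 ± 37.9) and the amino acid transporter gene Slc6a15 (1.27 ± 1.29 and 678 ± 95.6) were near 0 in WT as well. Rgs7bp had no read in Ebf1-KO and was at least 1210-fold higher in Pax5-KO.

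Set against WT, the called genes fell into different positions. Of the 2194 genes higher in Ebf1-KO, 964 (43.9%) had all 3 WT libraries below both knockouts, as for Flt3 and Bcl2, and 746 (34.0%) had WT overlapping Pax5-KO only, as for Mycn and Sox6. In 162 (7.38%) WT lay between, in 155 (7.06%) it overlapped Ebf1-KO only and in 115 (5.24%) it lay above both. The 1636 genes lower in Ebf1-KO were spread more evenly. WT lay above both knockouts in 361 (22.1%), as for Igll1 and Foxo1, below both in 322 (19.7%), as for Cd33 and H2-K1, and between them in 240 (14.7%), as for Rasgrp3. It overlapped Ebf1-KO only in 346 (21.1%) and Pax5-KO only in 302 (18.5%). Of the 8606 genes not called, WT lay below both knockouts in 2662 (30.9%) and above both in 679 (7.89%). These shares rest on the order of 9 libraries and were not tested. Reads over exons made up 47.0, 55.1 and 59.3% of mapped reads in WT libraries 1, 2 and 3. In Ebf1-KO this was 60.5 to 69.8% and in Pax5-KO 55.5 to 71.4%. Values are scaled to mapped reads, so a lower exon share lowers values across genes. How much of the WT positions rests on this was not tested. By the sex-linked genes WT lay near Pax5-KO and far from Ebf1-KO. Overlap of WT with Pax5-KO only thus cannot be told apart from shared sex.

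Markers of other cell types were read from fixed lists. Of 8 tested stromal and fibroblast markers, Pdgfrb was higher in Ebf1-KO (373 ± 65.0 and 25.4 ± 3.88) and Acta2 lower (13.9 ± 3.97 and 62.2 ± 15.3). The summed level of the 11 listed markers was 394 to 468 in Ebf1-KO and 82.0 to 243 in Pax5-KO. Pdgfrb alone was at 335 to 448 and 23.1 to 29.9, so the sum does not show more of the other markers in Ebf1-KO. The collagen gene Col1a1 was at 1.69 and 2.07 on average. Of 10 hepatocyte markers, Alb, Apoa1, Ttr, Serpina1a, Fgb and Cps1 had no read in any library, while Hnf4a was at 124, 85.0 and 108 in Ebf1-KO and below 1 elsewhere. Of the 7 autosomal macrophage markers, Adgre1 (560 ± 107 and 2.92 ± 1.54) and Marco (143 ± 34.2 and 9.10 ± 2.48) were higher in Ebf1-KO, and the complement genes C1qa, C1qb and C1qc were at 0 in all libraries. No mast cell or basophil marker passed the filter, and their sum was at most 1.90 in any library. The part of other cells in the results was not tested beyond these values.

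Accessibility at bound sites was measured in other libraries of the same genotypes, whose sex was not checked. Of 14365 tested peaks of EBF1 or PAX5 binding, 3117 (21.7%) were called between the knockouts, 1301 (9.06%) more and 1816 (12.6%) less accessible in Ebf1-KO. At 7805 sites bound by EBF1 only, 17.1% were less and 5.09% more accessible in Ebf1-KO, with a median log2 difference of -0.15. At 5031 sites bound by PAX5 only, 2.44% were less and 15.2% more accessible, with a median of 0.18. At 1529 sites bound by both, 23.5% were less and 9.09% more accessible. The count of more accessible sites was 655 without Ebf1-KO replicate 3, 862 without Ebf1-KO replicate 2, 851 without Pax5-KO replicate 2 and 819 without Pax5-KO replicate 3.

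Beside the RNA of the nearest autosomal gene, peaks near genes lower in Ebf1-KO were less accessible in 22.6% of 2038 cases and more accessible in 7.11%. Near genes not called, these shares were 9.33% and 8.93% of 5876, and near genes higher in Ebf1-KO 9.58% and 12.3% of 2214. Of EBF1-only peaks near lower genes 30.4% were less and 2.66% more accessible, and near higher genes 13.5% were less and 5.88% more accessible. Of PAX5-only peaks near higher genes 19.3% were more and 1.5% less accessible, and near lower genes 13.7% were more and 6.52% less accessible. Within these classes the more frequent direction was thus the same whether the RNA was higher or lower. Near the 329 genes with a peak that were lower by over 4-fold, 27.8% of peaks were less accessible. Peaks of one gene share their neighbour, and the nearest gene need not be the target, so these shares carry no test.

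**Figure D5:**
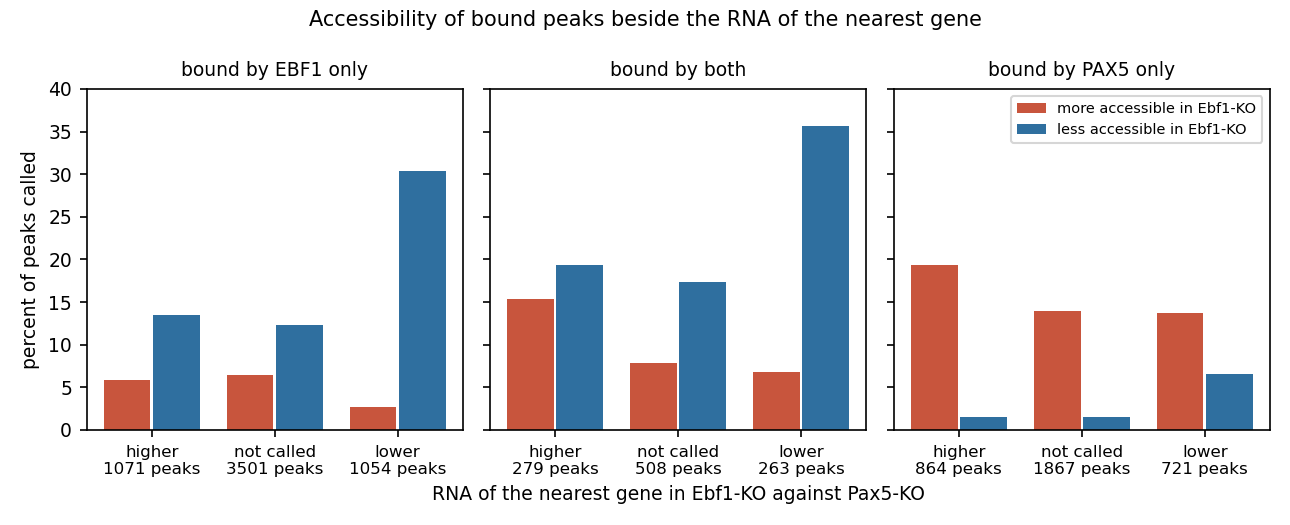
Percent of tested peaks called more (red) or less (blue) accessible in Ebf1-KO than in Pax5-KO (y axis, from 0), for peaks bound by EBF1 only, both or PAX5 only, by the RNA call of the nearest gene (x axis). The blue bar is tallest for peaks near genes lower in Ebf1-KO in the first 2 panels (30.4 and 35.7%), and the red bar stands above the blue one in the PAX5-only panel.

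Single sites of the key genes did not all follow the RNA. The Foxo1 peak of highest WT signal, 175.7 kb past the start, was lower in Ebf1-KO at 12.1, 7.26 and 12.5 against 19.4, 21.7 and 14.8 (-0.78 ± 0.27, adjusted p = 0.0246). The Irf4 peak, 37 kb past the start and bound by PAX5 only, was higher in Ebf1-KO at 16.4, 16.6 and 15.7 against 10.9, 6.10 and 5.65 (1.06 ± 0.27, adjusted p = 0.00182), while Irf4 RNA was lower. The Bcl2 intron peak was lower in Ebf1-KO (-1.11 ± 0.30, adjusted p = 0.00401), while Bcl2 RNA was higher. The Tcf7 intron peak had the direction of its RNA, at 9.35, 9.38 and 10.6 against 4.59, 5.83 and 3.91. The largest fall of all peaks, in an intron of Fmn2, went from 55.4, 41.9 and 25.2 in Pax5-KO to 0.780, 1.21 and 1.60 in Ebf1-KO (-4.20 ± 0.28, adjusted p = 1.08e-22). The largest rise, 19.6 kb from Bhlhe41 at a site bound by PAX5 only, went from 6.70, 3.18 and 3.04 to 36.2, 40.2 and 41.3 (2.99 ± 0.27, adjusted p = 1.12e-15). The strict core CCCNNGGGA was in 64.9% of the 1333 EBF1-only peaks less accessible in Ebf1-KO, in 51.4% of 6072 not called and in 26.1% of 395 more accessible ones, all of a median 271 bases. In PAX5-only peaks it was in 4.63% of 5031.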

How the data were processed

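Per the labels, RNA libraries (NuGEN Ovation Ultralow) were read as single reads. The submitters' processing notes name TopHat, HOMER, edgeR and DESeq2 on mm10, with no versions stated. The deposited gene table holds, per the file headers, a normalized signal for exons of 1 transcript per gene, scaled to 10 M mapped reads per library. Dividing by the value of 1 read gave whole reads (to 0.1) for 99.75 to 100% of values. The deposited ATAC tables hold tag signal per peak scaled to 10 M, per the file headers. Gene lengths and the distances of peaks to start sites are the authors' own values, as deposited. No source used here states whether counting used strand.

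RNA and ATAC were fitted with limma 3.58.1 (trend) on log2(value + 1) over 9 libraries each, with a mean per genotype, after edgeR's filterByExpr (genes) or a minimum of 10 reads (peaks). P-values were two-sided and adjusted by Benjamini-Hochberg over all features. Groups and replicate numbers came from the titles. Same-numbered libraries deviated together from their group means (r = 0.33, 0.25 and 0.44 for Ebf1-KO with Pax5-KO, 0.12 to 0.32 with WT). From the data, the numbers were thus taken as pairs, but only in an alternative fit with a replicate block. The main fit ignored the pairing, and all counts, SEs and p-values come from it unless an alternative is named. Named genes were 24 key genes, the 12 largest rises and falls among called genes at 50 or more without overlap, and up to 4 per list and direction; named peaks were, for each key gene, the one with most WT signal, plus the 3 that rose and the 3 that fell most. The members and lists were chosen with earlier results of these data known. The model was also run on simulated data. These held few changed genes and no pairing, unlike the data here, so no conclusion is drawn from that run. Other tools were edgeR 4.0.16, DESeq2 1.42.0, matplotlib 3.10.9, pandas 2.3.3, NumPy 2.4.6, Python 3.11.15 and R 4.3.3. Values of some genes are not reported here.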

Additional observations from a re-analysis of the deposited data

How the results depend on the processing

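Over 20 alternatives, the counts of autosomal genes higher and lower in Ebf1-KO than in Pax5-KO stayed within 1.5 times 2194 and 1636, except 2456 lower genes by edgeR on recovered reads (2563 higher). They were 2566 and 2421 with TMM scaling, 2735 and 2424 by DESeq2, and 3103 and 2332 with a replicate block for the paired numbers. The block ended no call of a named gene, and list counts it moved by over 1.5 times stand beside those lists. Leaving out 1 library gave 1838 to 2692 higher and 1404 to 1767 lower genes. A robust spread, added after seeing the data, gave 2197 and 1642. Of 150 called genes named here or by rule, 128 were called in the same direction under every alternative that tested them, and none reversed. A minimum mean of 10 left low genes among them, such as H2-Aa, untested. More accessible bound sites numbered 655 to 1661 and less accessible ones 1451 to 1953 when 1 library was left out, and 1850 and 2225 with TMM scaling. Low genes rest on few reads: a minimum mean of 10 left 3054 of the 3830 calls and fewer higher genes in the interferon (2), antigen presentation (2) and erythroid (1) lists, and 3 lower genes in the myeloid list. Medians near 0 changed sign without Pax5-KO replicate 3 for the interleukin-7 (0.05) and PI3K (0.08) lists, and without Ebf1-KO replicate 3 or Pax5-KO replicate 1 for the cell cycle (-0.06 and -0.03) and glycolysis (-0.04 and -0.06) lists; the Myc list median was -0.17 without Pax5-KO replicate 3. The cause of each shift was not tested.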

Other observations

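Calls were spread over all 19 autosomes. The share of tested genes higher in Ebf1-KO ran from 13.4% on chromosome 14 to 21.1% on chromosome 11, and the share lower from 8.88% on chromosome 8 to 18.1% on chromosome 18. No library's median deviation on any autosome passed 0.08 on the log2 scale. Over all tested autosomal genes, 17.6% were higher and 13.2% lower. Within 2 Mb of Ebf1, 6 of 17 tested genes were higher and 2 lower in Ebf1-KO, among them Havcr2, an inhibitory receptor gene. Within 2 Mb of Pax5, 15 of 54 were higher and 9 lower, among them Cd72 and the kinase gene Melk.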
